A study of Saccharomyces cerevisiae with 6 samples.

Results

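The 36 genes described here encode the machinery that brings proteins into yeast mitochondria and folds them there. They were chosen by name, from what the proteins do, with earlier results of these data known. They cover subunits of the TOM, SAM, TIM22 and TIM23 complexes, the small TIM proteins and the MIA relay. The import motor, the processing peptidase and the chaperones of the matrix complete the set. All 36 were found among the 6400 genes of the count table, and all 36 passed the filter on low counts, with at least 773 reads in every library.

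Total RNA was sequenced from *Saccharomyces cerevisiae* CX01F, an evolved strain, and from its parent CX01, with 3 biological replicates each, to ask how metabolism changed as the cells adapted to methanol. Cells of both strains went from overnight YPD (rich medium) to Delft medium (defined minimal medium) for 16 h, and then to glucose-free Delft medium with 1% methanol. They were shaken at 200 rpm and 30 °C and collected at an OD600 of about 1.0. The genotype label is the same for both strains. It names P. Paox1-SKL and P. Pdas1-skl together with P. pDAK, then B. mMDH3-skl besides B. mACT1-skl, P. pPYC, P. sXR as well as P. sXDH and P. sXK, PEX5, the deletions ∆PEX31 and also ∆PEX32, and S.c MDH2, S. cMDH3 along with S. Cnde1. The labels name a single evolved strain and give neither a batch nor a date. Handling and strain therefore cannot be told apart in this design.

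Nearly all mitochondrial proteins are made in the cytosol and cross or enter the mitochondrial membranes as unfolded chains. TOM, the translocase of the outer membrane, is the common entry gate. Behind it the routes divide: SAM inserts barrel proteins into the outer membrane, small TIM chaperones and TIM22 serve carrier proteins, MIA traps small proteins of the intermembrane space by disulfide bonds, and TIM23 with its ATP-driven motor pulls proteins with a presequence into the matrix. There the processing peptidase cuts off the presequence and Hsp70 and Hsp60 chaperones fold the product.

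Most receptor and channel genes of import differed little between the strains or were slightly higher in CX01F on the TMM scaling. The matrix chaperones among the 36 were lower. By the edgeR quasi-likelihood test (adjusted p under 0.05), 28 of the 36 genes changed, 15 higher and 13 lower. Among all 6129 tested genes 91.4% changed, 45.5% higher and 45.9% lower, so a call alone does not set these genes apart. Only 5 of the 36 moved by 2-fold or more, all lower: TOM6, HSP10, MDJ1, MIA40 and PAM17. Of all tested genes 30.6% changed by at least 2-fold, 16.1% upward and 14.6% downward. The median log2 change was 0.01 over the 36 genes and -0.00 over all tested genes, and the median size of the change, regardless of sign, was 0.39 against 0.60. For 28 of the 36 genes the 3 libraries of CX01F did not overlap those of CX01, against 91.9% of all tested genes.

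Levels are CPM (counts scaled to a common library size, with TMM factors), changes are log2 CX01F minus CX01 with their standard error (SE), and errors on levels are SD over 3 libraries. In bulk RNA, fewer cells with a transcript and less of it per cell cannot be told apart. Scaling by library size alone moves the log2 changes by a median of -0.21. Under it 11 of the 15 higher genes remained higher and called, while ERV1, TIM17, TIM23 and PAM16 turned negative. Of these, TIM17 and TIM23 were called lower. The 13 lower genes were again called lower, and the 8 genes that had not passed were called lower too, at log2 changes of -0.18 to -0.26. With this scaling 2221 of all tested genes were higher and 3407 lower.

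Library totals ranged from 51537969 to 63183824 counts. Tested coding genes of chromosomes XI and XV had median log2 changes of -0.82 and -0.86, against 0.02 to 0.26 on the other 14 chromosomes. Of the 36 genes, 6 lie there, MIA40 and PAM17 on XI and TOM6, TIM18, MGE1 and HSP10 on XV, and all 6 fell, as did 677 of the 851 tested coding genes of these chromosomes. Of the 30 on other chromosomes 15 rose, 7 fell and 8 did not pass, beside 2590 higher and 1965 lower of the 5002 tested coding genes there. Fitted without the genes of chromosomes XI and XV, the same 30 had 12 higher and 14 lower, so their balance depends on the scaling. All tested genes of that fit had 2344 higher and 2440 lower. TOM22, TOM70, TOM5, TOM7, TIM13, TIM54 and MAS1, uncalled when all genes were fitted, passed as lower in that fit. Of the 5 falls of at least 2-fold, 4 are on XI or XV, and MDJ1 on chromosome VI is the other. Falls of this size numbered 354 among the 851 tested coding genes of XI and XV. Among the 5002 on the other chromosomes they numbered 400. The part of the chromosome in these changes was not tested, and the 6 are given below also after subtraction of their chromosome's median.

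**Figure D1:**
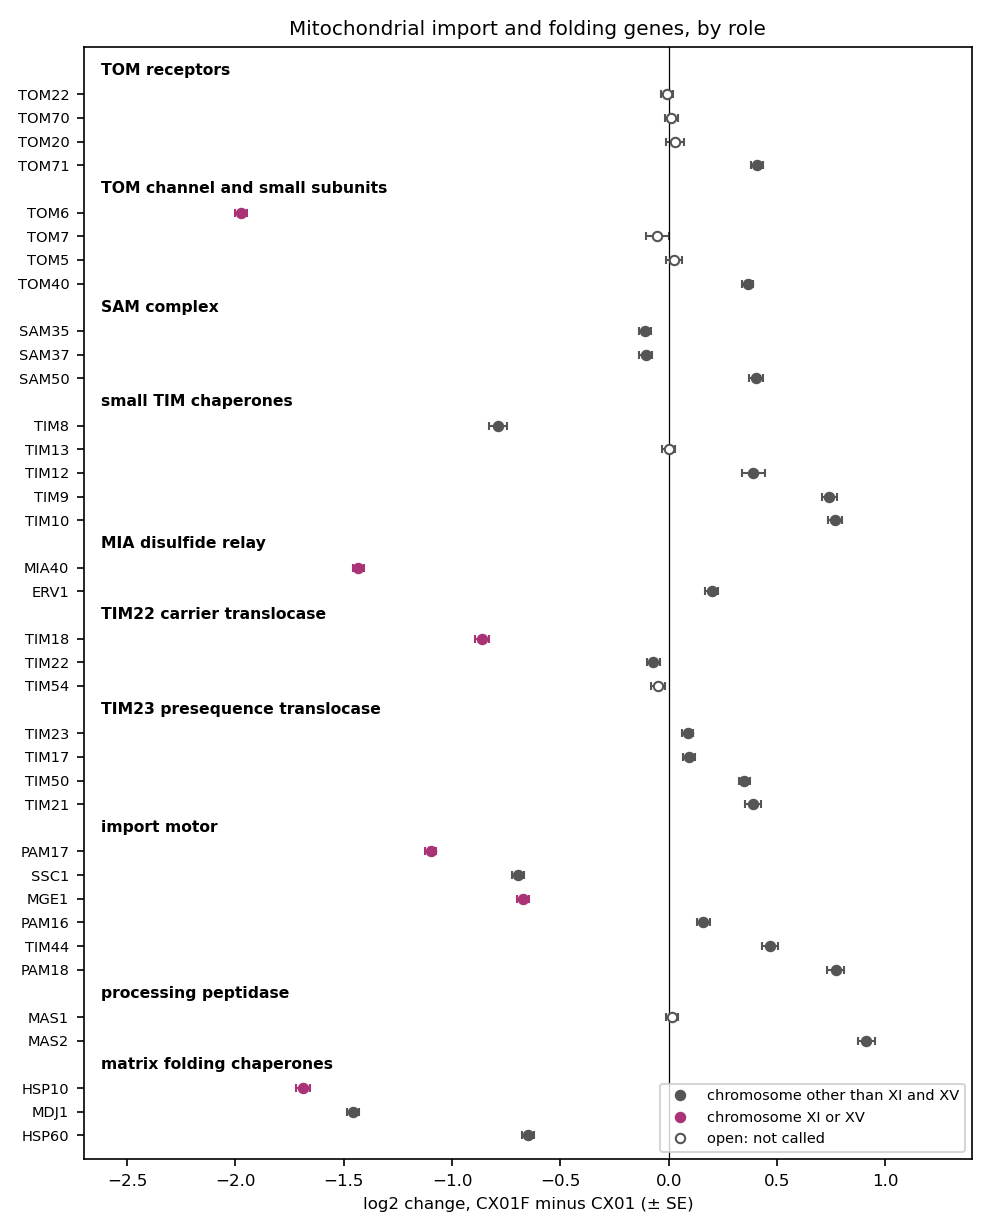
Log2 change (CX01F minus CX01, with SE) of the 36 genes by role; open points did not pass the test and coloured points are genes of chromosomes XI and XV. The points run from -1.97 for TOM6 to 0.91 for MAS2. ERV1, TIM17, TIM23 and PAM16, all within 0.20 of zero, turn negative when libraries are scaled by size alone. So do TOM20, TOM70, TOM5 and MAS1, which had not passed and are then called lower.

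Of the TOM receptor genes only TOM71 passed the test. Tom20, Tom22 and Tom70 bind precursors on the mitochondrial surface, and Tom71 is a less abundant relative of Tom70. TOM71 (YHR117W, chromosome VIII) was at 76.3, 79.8 and 75.9 CPM in CX01 replicates 1 to 3 and at 102, 103 and 103 CPM in CX01F. All CX01F libraries lay above all CX01 libraries, with a log2 change of 0.41 (SE 0.0285, edgeR adjusted p = 4.05e-09).

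TOM20 (YGR082W, chromosome VII) had 61.4, 61.9 and 57.6 CPM in CX01 and 59.5, 60.0 and 65.0 CPM in CX01F. TOM22 (YNL131W, chromosome XIV), whose product also organises the complex, had 145, 138 and 146 CPM against 145, 139 and 143. TOM70 (YNL121C, chromosome XIV) had 260, 258 and 243 CPM against 254, 260 and 252. In each of these the strains overlapped, and the log2 changes were 0.03 (SE 0.0400), -0.01 (SE 0.0288) and 0.01 (SE 0.0301), with edgeR adjusted p of 0.488, 0.799 and 0.706. The coding sequences of TOM70 and TOM71 are 64.1% identical in R64, the RefSeq genome, and share no identical run longer than 12 bases.

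The TOM pore was higher and TOM6, a small partner of it, much lower. Tom40 forms the channel, and Tom5, Tom6 and Tom7 are short membrane proteins around it, of which Tom6 helps hold the complex together. TOM6 (YOR045W, chromosome XV) was at 252, 248 and 252 CPM in CX01 and at 64.3, 61.9 and 65.2 CPM in CX01F. This was the largest change of the 36, 3.93-fold lower (log2 -1.97, SE 0.0278, edgeR adjusted p = 4.85e-17), with no overlap. After subtraction of the median of chromosome XV it was -1.11.

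TOM40 (YMR203W, chromosome XIII) went the other way, with 231, 233 and 231 CPM in the parent and 294, 299 and 301 in CX01F. Every CX01F library exceeded every CX01 library (log2 0.36, SE 0.0243, edgeR adjusted p = 2.21e-09). TOM5 (YPR133W-A, chromosome XVI) had 53.2, 49.0 and 49.9 CPM against 50.5, 51.3 and 52.8. TOM7 (YNL070W, chromosome XIV) had 40.2, 35.7 and 41.0 CPM against 38.6, 35.2 and 38.6. Neither passed the test (log2 0.03, SE 0.0370, and -0.05, SE 0.0531, with edgeR adjusted p of 0.513 and 0.353). TOM7 passed as lower without CX01 replicate 2 (adjusted p = 0.0273). Without the genes of chromosomes XI and XV both passed as lower (0.0332 for TOM5 and 0.00801 for TOM7).

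The SAM complex was split between its barrel and its outer subunits. Sam50 is the barrel that inserts other barrel proteins, and Sam35 and Sam37 sit on its cytosolic face. SAM50 (YNL026W, chromosome XIV) rose from 66.6, 69.3 and 65.1 CPM to 88.3, 91.0 and 87.0 CPM. The libraries did not overlap (log2 0.40, SE 0.0319, edgeR adjusted p = 1.60e-08). SAM35 (YHR083W, chromosome VIII) was at 97.1, 101 and 96.4 CPM in CX01 and at 89.9, 93.4 and 89.6 CPM in CX01F. This fall was small but without overlap (log2 -0.11, SE 0.0294, edgeR adjusted p = 0.00294), and SAM37 fell by the same 0.11 on the log2 scale.

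TIM9 and TIM10 rose together, while TIM8 fell and its partner TIM13 did not pass. Tim9 and Tim10 form a ring that carries membrane proteins through the intermembrane space, Tim8 and Tim13 form a second ring with fewer known clients, and Tim12 docks the first ring onto TIM22. TIM10 (YHR005C-A, chromosome VIII) had 73.2, 68.4 and 69.8 CPM in the parent and 119, 118 and 122 in CX01F. It was 1.70-fold higher (log2 0.77, SE 0.0311, edgeR adjusted p = 6.13e-12) with no overlap, and TIM9 was close to it at log2 0.74. TIM12, the lowest of the 36 in CPM, was at 13.4 ± 0.495 CPM in the parent and 17.6 ± 0.657 in the evolved strain, a log2 rise of 0.39.

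TIM8 (YJR135W-A, chromosome X) fell from 65.1, 60.2 and 61.5 CPM to 37.7, 34.2 and 36.2 CPM. All CX01F libraries were below all CX01 libraries (log2 -0.79, SE 0.0414, edgeR adjusted p = 1.34e-10). Its partner TIM13 (YGR181W, chromosome VII) had 46.3, 46.3 and 46.0 CPM in CX01 and 46.9, 45.9 and 45.9 CPM in CX01F. The strains overlapped, and TIM13 did not pass (log2 -0.00, SE 0.0310, edgeR adjusted p = 0.994).

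In the MIA relay the receptor fell and the enzyme that recharges it did not. Mia40 binds incoming cysteine-rich proteins and oxidises them, and Erv1 is the sulfhydryl oxidase that reoxidises Mia40. MIA40 (YKL195W, chromosome XI) was at 827, 814 and 813 CPM in CX01 and at 304, 304 and 301 CPM in CX01F. It was 2.70-fold lower without overlap (log2 -1.43, SE 0.0249, edgeR adjusted p = 4.47e-16), and -0.61 after subtraction of the median of chromosome XI. ERV1 (YGR029W, chromosome VII), which has 2 coding exons, was at 64.2, 65.8 and 66.5 CPM against 76.1, 73.1 and 76.0. The CX01F libraries were higher (log2 0.20, SE 0.0298, edgeR adjusted p = 2.05e-05), but the change was -0.01 with library size alone.

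No gene of the TIM22 complex rose. Tim22 is the channel for carrier proteins, Tim54 is a partner exposed to the intermembrane space, and Tim18 is a membrane subunit related to a subunit of succinate dehydrogenase. TIM18 (YOR297C, chromosome XV) fell from 60.3, 59.3 and 57.8 CPM to 32.5, 32.1 and 33.0 CPM. The strains did not overlap (log2 -0.86, SE 0.0331, edgeR adjusted p = 3.36e-12), and the value relative to the median of chromosome XV was 0.00.

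TIM22 itself was at 83.0 ± 1.53 CPM in CX01 and 79.1 ± 1.54 CPM in CX01F (log2 -0.07, edgeR adjusted p = 0.0306). This call was lost without CX01 replicate 2 (adjusted p = 0.0533), CX01 replicate 3 (0.0646), CX01F replicate 1 (0.122) or CX01F replicate 3 (0.0841), and with DESeq2 (0.0631). TIM54 (YJL054W, chromosome X) had 108, 115 and 105 CPM in CX01 and 105, 106 and 106 CPM in CX01F. The strains overlapped and TIM54 did not pass (log2 -0.05, SE 0.0328, edgeR adjusted p = 0.165). It passed as lower without CX01 replicate 3 (adjusted p = 0.0173) and without the genes of chromosomes XI and XV (0.000246).

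All 4 TIM23 genes passed as higher, by small amounts. Tim23 and Tim17 form the core of the presequence translocase, Tim50 receives presequences in the intermembrane space, and Tim21 links the complex to TOM and to respiratory complexes. TIM21 (YGR033C, chromosome VII) was at 65.6, 59.1 and 60.8 CPM in CX01 and at 82.7, 80.3 and 79.5 CPM in CX01F. It changed most of the 4, without overlap (log2 0.39, SE 0.0373, edgeR adjusted p = 1.60e-07), and TIM50 rose by a log2 of 0.35. TIM17 and TIM23 each rose by a log2 of 0.09. With library size alone they were called lower, at -0.11 and -0.12 (edgeR adjusted p = 0.00187 and 0.000465). Without the genes of chromosomes XI and XV neither was called, at -0.02 and -0.03. The direction of the core genes thus turns with the scaling.

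**Figure D2:**
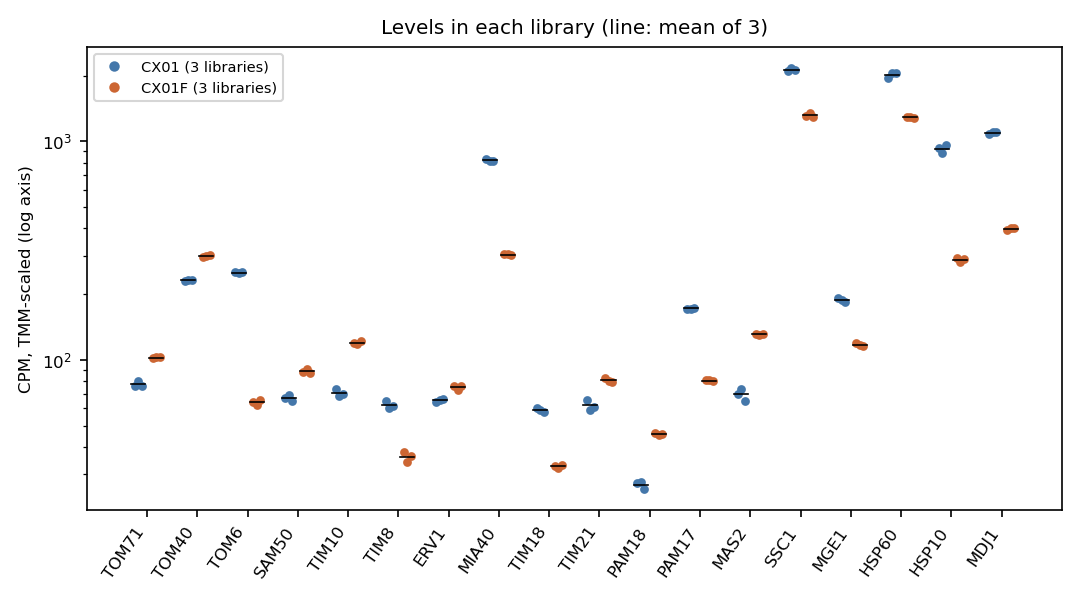
CPM on a log axis in each of the 6 libraries for 18 of the 36 genes, with the mean of each strain as a line. The CX01F points lie below the CX01 points for TOM6, TIM8, MIA40, TIM18, PAM17, SSC1, MGE1, HSP60, HSP10 and MDJ1 and above them for the others; ERV1 alone of these turns negative when libraries are scaled by size alone.

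Of the 6 genes of the import motor 3 fell (SSC1, MGE1 and PAM17) and 3 rose (PAM18, TIM44 and PAM16). Ssc1 is the mitochondrial Hsp70 that pulls and folds chains, Mge1 exchanges its nucleotide, Tim44 anchors it at the channel, Pam18 and Pam16 are a J protein and its regulator, and Pam17 helps organise the motor. SSC1 fell by 0.70 on the log2 scale, from 2130 ± 33.1 to 1315 ± 25.1 CPM, and MGE1 (chromosome XV) was at log2 -0.67, from 188 ± 4.86 to 118 ± 2.07 CPM. Relative to its chromosome's median MGE1 was at 0.19, while SSC1, on chromosome X, was at -0.80.

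PAM17 (YKR065C, chromosome XI) fell from 171, 171 and 174 CPM to 80.5, 80.9 and 79.8 CPM. It was 2.14-fold lower with no overlap (log2 -1.10, SE 0.0249, edgeR adjusted p = 7.72e-15), or -0.28 after subtraction of the median of chromosome XI. PAM18 (YLR008C, chromosome XII) rose from 27.4, 27.7 and 25.5 CPM to 46.4, 45.5 and 45.7 CPM. Again the strains did not overlap (log2 0.77, SE 0.0392, edgeR adjusted p = 9.22e-11). TIM44 rose by a log2 of 0.47, and PAM16 by 0.16, which became -0.05 with library size alone and lost its call without chromosomes XI and XV (adjusted p = 0.19).

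SSC1 has a close relative, ECM10, a minor mitochondrial Hsp70. Their coding sequences are 75.7% identical, and the longest identical run is 26 bases. How reads that map to several places were counted is not given in the sources used here. ECM10 was also lower in CX01F, at log2 -0.79 and far lower in reads, 67.6 against 2130 CPM in CX01.

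The processing peptidase changed in 1 of its 2 subunits. Mas1 and Mas2 form the dimer that removes presequences: Mas1 carries the catalytic site and Mas2 contributes to binding the substrate. MAS2 (YHR024C, chromosome VIII) was at 70.1, 73.9 and 64.6 CPM in CX01 and at 131, 130 and 132 CPM in CX01F. It was 1.88-fold higher without overlap, the largest rise of the 36 (log2 0.91, SE 0.0397, edgeR adjusted p = 1.45e-11). MAS1 (YLR163C, chromosome XII) had 163, 156 and 159 CPM against 163, 162 and 159. The strains overlapped and it did not pass (log2 0.02, SE 0.0266, edgeR adjusted p = 0.566).

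All 3 matrix folding genes fell, with a median log2 change of -1.46. Hsp60 is the chaperonin barrel of the matrix, Hsp10 is its lid, and Mdj1 is the J protein that delivers clients to Ssc1. HSP10 (YOR020C, chromosome XV) was at 931, 884 and 961 CPM in CX01 and at 293, 279 and 289 CPM in CX01F. It was 3.22-fold lower with no overlap (log2 -1.69, SE 0.0336, edgeR adjusted p = 1.84e-15), and -0.83 relative to the median of chromosome XV. HSP60, on chromosome XII, fell by 0.65 on the log2 scale, from 2022 ± 61.7 to 1289 ± 13.4 CPM. MDJ1, on chromosome VI, fell by 1.46, from 1093 ± 11.5 to 398 ± 5.75 CPM. Relative to their own chromosomes these last 2 were at -0.85 and -1.61, so their falls were larger on that scale.

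Genes of the matrix Hsp70 and Hsp60 systems include known targets of Hsf1, the heat shock factor, which binds repeats of a short unit. Windows of 300 bases ending 50 bases before the start codon were therefore read from the RefSeq R64 genome for the chaperone genes SSC1, HSP60, HSP10 and MDJ1. All 4 lie on the minus strand and are written 5′ to 3′ in the direction of the gene, at chrX:521653-521952 (SSC1), chrXII:665053-665352 (HSP60), chrXV:370895-371194 (HSP10) and chrVI:106287-106586 (MDJ1). The build behind the counts is not given in the sources used here, so these R64 positions locate only the sequences. Capitals mark GAANNTTC or TTCNNGAA, a pair of heat shock units in opposite orientation, searched on both strands. Units in other spacings or arrangements were not searched for and stay in lower case.
HSP10: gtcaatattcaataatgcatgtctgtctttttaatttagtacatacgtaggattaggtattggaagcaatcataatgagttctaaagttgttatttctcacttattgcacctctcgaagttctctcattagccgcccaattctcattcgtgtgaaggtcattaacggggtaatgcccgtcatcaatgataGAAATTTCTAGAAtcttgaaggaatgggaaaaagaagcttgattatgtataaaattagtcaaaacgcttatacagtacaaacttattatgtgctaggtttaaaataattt
HSP60: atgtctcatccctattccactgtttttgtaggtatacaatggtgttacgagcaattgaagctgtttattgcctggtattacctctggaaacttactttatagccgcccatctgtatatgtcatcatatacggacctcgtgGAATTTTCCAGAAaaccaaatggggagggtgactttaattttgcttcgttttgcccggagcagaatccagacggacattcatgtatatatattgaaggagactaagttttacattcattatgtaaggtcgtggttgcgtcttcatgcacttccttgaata
SSC1: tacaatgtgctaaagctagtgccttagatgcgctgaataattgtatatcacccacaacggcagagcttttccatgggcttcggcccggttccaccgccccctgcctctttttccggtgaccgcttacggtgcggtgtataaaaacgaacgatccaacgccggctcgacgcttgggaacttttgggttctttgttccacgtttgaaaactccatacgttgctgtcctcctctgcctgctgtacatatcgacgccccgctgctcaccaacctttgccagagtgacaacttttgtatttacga
MDJ1: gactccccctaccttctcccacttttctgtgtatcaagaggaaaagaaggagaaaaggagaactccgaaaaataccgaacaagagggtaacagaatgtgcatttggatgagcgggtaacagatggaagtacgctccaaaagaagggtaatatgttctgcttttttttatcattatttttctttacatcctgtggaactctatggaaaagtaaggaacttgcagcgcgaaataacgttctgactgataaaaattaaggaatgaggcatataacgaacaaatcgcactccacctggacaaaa

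HSP10 and HSP60 each hold both forms, overlapping by 3 letters, and SSC1 and MDJ1 hold neither in this window. Such an overlapping pair stands in 61 of the 6007 windows of this kind in R64 (1.02%), and among the 36 genes in HSP60 and HSP10 alone. Overlapping pairs were not among the planned motifs. Their form is that of these 2 windows, so the count is no test. At least 1 of the 2 forms is in 22.8% of all windows and in 9 of the 36 (25%). The other 7 are SAM50, TIM8, TIM22, TIM54, TIM17, TIM21 and PAM16, whose log2 changes run from -0.79 to 0.40. The core of the stress response element, CCCCT, is in 22.9% of windows and 5 of the 36. The 5 are SSC1, MDJ1 and SAM35, which fell, TIM10, which rose, and TIM13, which did not pass. CCAAT, the core bound by the respiratory activator Hap2/3/4/5, is in 42.9% of windows and 13 of the 36. The window of MDJ1 also holds coding sequence of YFL015C. A match says only that the letters are present, and a window without one may hold heat shock units in other spacings.

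Ratios between partner genes within a library do not depend on how libraries are scaled. They were taken as counts per coding length, and the pairs were picked after the changes had been seen, so they are given without a test. The ratio of HSP10 to HSP60 was 2.55, 2.29 and 2.51 in CX01 and 1.21, 1.15 and 1.22 in CX01F. In counts per R64 coding length HSP10 thus stood above HSP60 in both strains, and closer to it in CX01F. The annotation behind the counts is not given, so the change between strains is firmer than the ratio itself. The ratio of TOM6 to TOM40 was 6.77 ± 0.0850 in CX01 and 1.34 ± 0.0383 in CX01F. The ratios of TOM22, TOM5 and TOM7 to TOM40 also separated the strains, with TOM22 to TOM40 at 1.57 ± 0.0527 and 1.21 ± 0.0342.

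MIA40 to ERV1 went from 5.88 ± 0.161 in CX01 to 1.90 ± 0.0503 in CX01F, and MAS2 to MAS1 from 0.418 ± 0.0332 to 0.778 ± 0.0163. TIM8 to TIM13 was 1.62 ± 0.0638 against 0.939 ± 0.0359, and PAM18 to PAM16 was 0.333 ± 0.0247 against 0.508 ± 0.00351. Relative to SSC1, MDJ1 was lower in CX01F (0.657 ± 0.00553 against 0.387 ± 0.00653) and TIM44 higher (0.154 ± 0.00816 against 0.346 ± 0.00363). The strains did not overlap in any of these.

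Other partners kept overlapping ratios in the 2 strains. TIM9 to TIM10 was 0.726 ± 0.0291 in CX01 and 0.713 ± 0.0266 in CX01F, TIM17 to TIM23 was 1.08 ± 0.0345 and 1.08 ± 0.0104, and SAM35 to SAM37 was 1.65 ± 0.0627 and 1.65 ± 0.0698. MGE1 to SSC1 was 0.252 ± 0.00926 and 0.256 ± 0.00674. MGE1 lies on chromosome XV and SSC1 on chromosome X, and the part of the chromosome in this ratio was not tested.

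**Figure D3:**
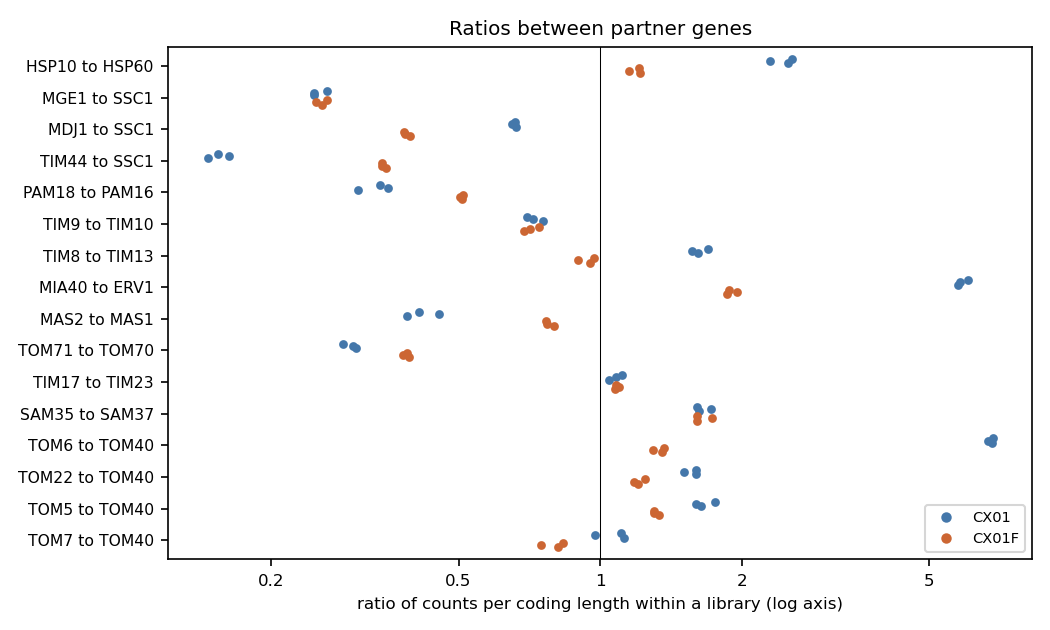
Ratios of counts per coding length between partner genes on a log axis, 1 point per library. TIM9 to TIM10, TIM17 to TIM23, SAM35 to SAM37 and MGE1 to SSC1 overlap between the strains; TOM6 to TOM40 moved most, from 6.77 to 1.34.

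Levels between genes were compared as CPM per kilobase of coding sequence. HSP10 was highest in both strains, at 2882 ± 121 CPM per kilobase in CX01 and 894 ± 21.6 in CX01F. TOM6 was second in CX01 (1348 ± 10.7) and sixth in CX01F (343 ± 9.11), where it did not differ beyond the spread from TIM23 (341 ± 6.28) and TOM5 (337 ± 7.71). TIM10 moved up from rank 13 to rank 4, at 425 ± 7.92 in CX01F. At the low end, TOM71 (40.3 ± 1.12) and TIM12 (40.7 ± 1.5) were not separable in CX01, nor were they in CX01F (53.4 ± 0.0202 and 53.2 ± 1.99).

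The level summed over the 36 genes was 10379.5 ± 61.2 CPM in the parent and 7033 ± 28.3 in CX01F. SSC1, HSP60, MDJ1, HSP10 and MIA40 made up 67.3% ± 0.494 of that sum in CX01 and 51.1% ± 0.285 in CX01F. The TIM23 genes together went from 599 ± 10.6 to 685 ± 5.51 CPM and the small TIM genes from 240 ± 6.17 to 300 ± 4.88 CPM, while the matrix folding genes went from 4040 ± 73.6 to 1974 ± 10.5 CPM. The lower sum thus lay in the abundant chaperones and MIA40.

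**Figure D4:**
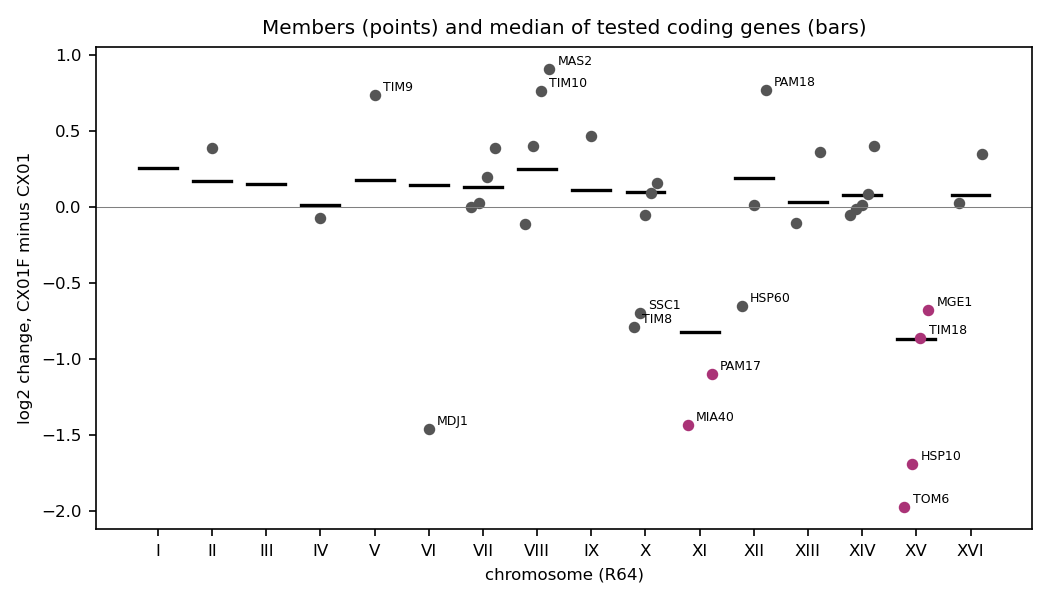
Log2 change (CX01F minus CX01) of the 36 genes as points by chromosome, with bars at the median of the tested coding genes of each chromosome. MGE1 (-0.67) and TIM18 (-0.86) sit at or above the bar of chromosome XV (-0.86), TOM6 and HSP10 below it, and MDJ1 (-1.46) and SSC1 (-0.70) lie below the bars of chromosomes VI and X.

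Other genes of import and matrix quality control were read from 3 further lists. Of all tested genes 45.5% were higher and 45.9% lower, with 14.6% lower by at least 2-fold, so these calls alone say little. Of 16 import factors 6 rose and 10 fell (median -0.32, log2). The falls of at least 2-fold were CIS1 (log2 -2.21), which recruits the extraction ATPase Msp1 to TOM under import stress, HOT13 (-1.88), a zinc-binding helper of the MIA relay, PNT1 (-1.57), an inner membrane export factor, and MIM1 (-1.34), which inserts helical outer membrane proteins. HOT13 lies on chromosome XI and PNT1 and MIM1 on XV, where their values relative to the chromosome's median were -1.07, -0.70 and -0.47. CIS1, on chromosome XII, went from 107 ± 2.76 to 23.1 ± 1.28 CPM (SE 0.0396, edgeR adjusted p = 5.99e-16).

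Of 9 other presequence and inner membrane peptidases 3 rose and 2 fell, none by 2-fold, with a median of -0.05. Of 15 other matrix chaperones and proteases 4 rose and 9 fell, with a median of -0.39. HSP78, the matrix disaggregase, fell from 1429 ± 27.5 to 705 ± 10.6 CPM (log2 -1.02, SE 0.0272, edgeR adjusted p = 4.84e-14). The others that fell were ECM10 (log2 -0.79), MGR1 (-0.72), MGR3 (-0.69), YTA12 (-0.62), PHB1 (-0.61), JAC1 (-0.43), AFG3 (-0.39) and PHB2 (-0.30). The 4 that rose were CPR3, MCX1 (log2 0.45), SSQ1 (0.34), an Hsp70 of iron-sulfur cluster assembly, and TCM62 (0.30). CPR3, a matrix proline isomerase that assists folding, rose from 81.2 ± 1.49 to 276 ± 1.06 CPM (log2 1.76, SE 0.0258, edgeR adjusted p = 7.27e-17).

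The 36 genes stood between their neighbours in median change. Nuclear genes of the respiratory chain and ATP synthase, whose products use this import route, had 36 of 39 higher and 2 lower, with a median log2 change of 1.01. Cytosolic Hsp70 and Hsp90 chaperones had 6 of 23 higher and 16 lower, with a median of -0.73. Mitochondrial ribosomal proteins had 19 of 70 higher and 37 lower, with a median of -0.09. Beside these counts stand 45.5% higher and 45.9% lower of all tested genes. The differences between lists were not tested.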

How the data were processed

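The authors deposited raw read counts, 1 whole number per gene and library. TopHat2 2.0.12, Cufflinks, featureCounts and Subread 1.4.6 are named without roles, per the submitters' processing notes. Genome build, strand setting and treatment of multiply mapping reads are not given in the sources used here. A row without a gene name (0.00877% to 0.044% of counts) was left out.

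The analysis used edgeR 4.0.16 in R 4.3.3: filterByExpr (minimum count 10, minimum total 15; 6129 genes tested), TMM scaling, and a two-sided quasi-likelihood test on strain with no other covariate, adjusted by Benjamini-Hochberg over all tested genes. SE is the log2 change over the square root of F. The fit was tested on simulated counts in which few genes changed, evenly up and down. That setting does not probe the scaling where most genes are called, as here. DESeq2 1.42.0 and limma 3.58.1 were alternatives. The labels call the replicates biological without naming what was separate, so p-values cover the spread between these libraries. A count of 0 allows up to 3 counts, or 0.0475 to 0.0582 CPM before TMM scaling (counting error only).

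Members and lists were chosen with earlier results of these data known. Values in every library were given for the called member of largest change in each direction per role group and for members not called. Pathway genes were named if called and changed by at least 2-fold, at most 5 a list. The other matrix chaperones and proteases were named whenever called. By name, 6083 of 6400 genes and all 36 members matched the RefSeq R64 table, and no other R64 gene overlaps a member. Protein sequences were not used here.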

Additional observations from a re-analysis of the deposited data

How the results depend on the processing

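The alternatives were planned. The count of 28 changed members was 34 with library size only, 27 with DESeq2, 26 of 30 (12 higher and 14 lower) without chromosomes XI and XV, and 27 to 28 when 1 library was left out. The count of all tested genes changed was 5603 in the main fit, 5628 with library size only and 5553 with DESeq2. It was 4784 (2344 higher and 2440 lower) without chromosomes XI and XV, and 5501 to 5617 when 1 library was left out. With library size only 11 members were higher and 23 lower, beside 2221 higher and 3407 lower of all tested genes. Against a 1.5-fold change (glmTreat) 14 members passed, 4 higher and 10 lower, and 2886 of all tested genes, 1472 higher and 1414 lower. Without chromosomes XI and XV, 1 member (MDJ1) changed by at least 2-fold, as among the same 30 in the main fit. TOM6, HSP10, MIA40 and PAM17 lie on the chromosomes left out. Under a replicate block 28 members and 5619 genes were called, and no call of a member changed. Deviations of libraries with the same number correlated only at 0.0242, 0.0785 and 0.0207. Every library correlated best with its own number, a hint from the data that does not show the numbers to be pairs.

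Of the 498 tested values of members under the alternatives, 452 kept direction and side of the threshold. Calls were gained in 17, of which 7 also reversed, and lost in 10, of which 4 also reversed. Reversals within the threshold's side numbered 17 among uncalled and 2 among called values. A further 36 values, relative to the chromosome median, have no test. Reversals with library size only were TOM20 (-0.18), TOM70 (-0.20), TOM5 (-0.18), ERV1 (-0.0098), TIM17 (-0.11), TIM23 (-0.12), PAM16 (-0.049) and MAS1 (-0.19). Without chromosomes XI and XV, which moved log2 changes by a median of -0.12, they were TOM20 (-0.086), TOM70 (-0.10), TOM5 (-0.090), TIM17 (-0.023), TIM23 (-0.029) and MAS1 (-0.10), and PAM16 lost its call. Relative to the chromosome median they were TIM18 (0.0027), TIM17 (-0.0079) and MGE1 (0.19). TOM70 also turned with at least 1 CPM in 3 libraries (-0.0023). TIM13 turned with RLE (0.00073), no filter (0.0042) and DESeq2 (0.00073). When 1 library was left out, uncalled genes crossed zero: TOM20 from -0.013 to 0.054, TOM22 from -0.033 to 0.0076, TOM70 from -0.017 to 0.029, TIM13 from -0.0097 to 0.0059 and MAS1 from -0.00043 to 0.031. The 6 other pathway genes that were called and changed by at least 2-fold kept their direction and calls. Depth limits little here, since every member had at least 773 counts in each library.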
